A study of Rattus norvegicus with 91 samples.

Results

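Glutamate released in the brain is loaded into synaptic vesicles by vesicular transporters, cleared from the synapse by excitatory amino acid transporters of neurons and astrocytes, and turned into glutamine by glutamine synthetase in glia before it returns to neurons. In the ventral tegmental area (VTA), the midbrain region whose dopamine neurons project to the striatum and cortex, glutamate drives dopamine neuron firing, and some VTA neurons are themselves glutamatergic. The genes described here are Slc17a6 and Slc17a7, which encode the vesicular transporters VGLUT2 and VGLUT1, Slc1a1, which encodes the transporter EAAT3 of neurons, Slc1a2 and Slc1a3, which encode the mainly astrocytic transporters GLT-1 and GLAST, and Glul, which encodes glutamine synthetase. They were taken as every probe set (a group of array probes read as 1 signal) whose platform annotation gives a single symbol equal to 1 of these 6 genes, of 14217 genes with such a probe set. This gave 13 of the 20826 single-symbol probe sets. Of these, 12 passed the filter on low signals, described below, and were tested.

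The study measured VTA tissue of 91 rats, 1 Affymetrix array per rat, from 5 pairs of rat lines bred apart for drinking much or little alcohol. The HAD1 line (high alcohol drinking, 8 arrays) was compared with LAD1 (low alcohol drinking, 10 arrays), and HAD2 (8 arrays) with LAD2 (9 arrays), which are replicate lines of the same selection. The alcohol-preferring P line (9 arrays) was compared with the nonpreferring NP line (10 arrays), AA (Alko, alcohol, 10 arrays) with ANA (Alko, nonalcohol, 10 arrays), and the Sardinian preferring line sP (8 arrays) with the nonpreferring sNP (9 arrays). All rats carry the genome of their own line and no treatment is named in the labels. The sources used here give neither age nor sex. Lines of a pair differ at many loci besides those that set drinking, so a difference within a pair is a difference between 2 lines and cannot be told apart from their other inherited differences. Values are log2 signals, and a difference of 1 is a doubling. Lines were compared within a pair and for 1 probe set at a time. Bright and dim describe the array signal of a probe set and not the abundance of its transcript.

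Not all arrays lay with their labels. By the shape of their signal distributions the arrays fell into 5 sets, and the array labelled AA 1 lay with the 19 arrays labelled P and NP, while those labelled AA 19 and ANA 20 lay with the 17 labelled sP and sNP. The set with the P and NP arrays thus held 20 arrays, that with most AA and ANA arrays 17 and that with the sP and sNP arrays 19. The labels AA and ANA are on 20 arrays, sP and sNP on 17, and P and NP on 19, so the sizes of these sets and of these labels are the same 3 numbers in another order. The set of 17 held 8 arrays labelled AA and 9 labelled ANA, and the labels sP and sNP are likewise on 8 and 9 arrays. Whether the labels outside the HAD/LAD pairs name the right lines could not be checked. Lines outside the HAD/LAD pairs are therefore called by the label on the array. The AA minus ANA differences are given with and without the 3 arrays AA 1, AA 19 and ANA 20. Leaving these out does not settle whether the other labels are right. The difference between 3' and 5' Gapdh control signals, which grows as RNA shortens, averaged 1.89 in HAD1 against 1.78 in LAD1 and 3.42 in HAD2 against 3.58 in LAD2, and lay between 0.136 and 0.567 in the other line means. Th, the defining dopamine neuron marker, ranged between 13.32 and 15.26 in the 8 lines other than P and NP. It ran 9.12, 14.08 and 14.95 (lowest, median and highest) in arrays labelled P and 8.23, 13.65 and 14.88 in those labelled NP, with the lowest values in P 10 and NP 8. The labels do not say more of the animals than the line and a number, so p-values measure the spread between the rats of a line.

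Of the 6 genes, 4 (Slc1a1, Slc1a2, Slc1a3 and Glul) had a probe set that passed the test in some pair, and never more than 1 of its sets in the same pair. A difference was called at an adjusted p under 0.05 in limma, adjusted by Benjamini-Hochberg over all 21185 probe sets tested in a pair. In HAD1 against LAD1, 1 of 12 probe sets passed, an Slc1a2 set that fell, where 4.32% of all tested probe sets passed (2.32% upward and 2% downward). In HAD2 against LAD2, 2 of 12 passed, 1 of Slc1a3 and 1 of Slc1a1, both of which rose, against 6.37% of all (3.35% upward and 3.02% downward). In arrays labelled AA against ANA, 2 of 12 passed, 1 of Glul and 1 of Slc1a1, both of which rose, against 1.8% of all (0.821% upward and 0.977% downward), and 4 of 12 without the 3 arrays apart, against 4.96%. In arrays labelled P against NP, and in those labelled sP against sNP, 0 of 12 passed, where 0% of all did. At an unadjusted p under 0.05 in limma, 1 of 12 and 276 of all probe sets (1.3%) passed for P against NP, and 1 of 12 and 765 of all (3.61%) for sP against sNP. The 1 of 12 was Slc17a7 1368986_at in both pairs, at -0.12 in P minus NP and 0.12 in sP minus sNP. Its means, 5.85 in P, 5.96 in NP, 5.08 in sP and 4.97 in sNP, lay below 7.02, the floor of the filter. The array weights, the intensity trend and the single fit over all arrays also called 0 in both of these pairs.

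**Figure D1:**
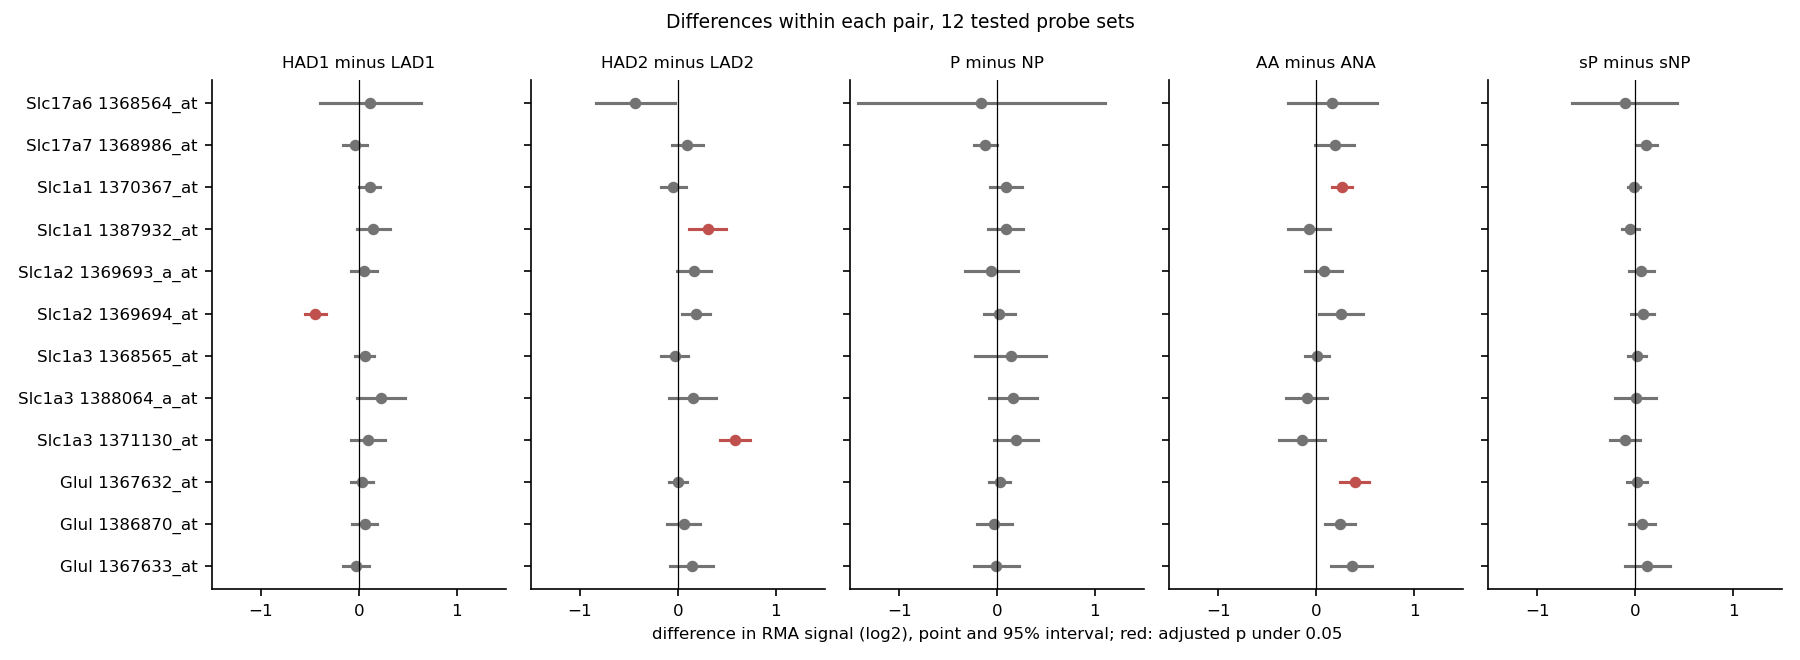
Differences in RMA signal (log2, horizontal axis) for the 12 tested probe sets of the 6 genes in each of the 5 pairs, high-drinking line minus low-drinking line. Points are differences and lines 95% intervals from limma, and red marks an adjusted p under 0.05. The 5 called differences lie in 3 pairs and on 5 different probe sets, and Slc17a6 has the widest interval in every pair.

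The median difference of the 12 probe sets was 0.06 in HAD1 minus LAD1, 0.12 in HAD2 minus LAD2, 0.02 in P minus NP, 0.18 in AA minus ANA (0.17 without the 3 arrays apart) and 0.02 in sP minus sNP. The median of all tested probe sets lay within 0.01 of 0 in each of these pairs. Because the probe sets of 1 gene share a transcript, these 12 are not 12 separate measurements. Whether a difference depended on the pair was tested for each probe set with a moderated F test over the 5 differences. The F test passed for 4 of 12, namely Slc1a2 1369694_at (adjusted p 6.24e-06), Glul 1367632_at (adjusted p 5.42e-05), Slc1a3 1371130_at (adjusted p 0.000283) and Slc1a1 1370367_at (adjusted p 0.0197), against 8.26% of all probe sets. These 4 passed again without the 3 arrays apart, where 9.88% of all passed. Slc17a7 1368986_at (adjusted p 0.0156) and Slc1a1 1387932_at (adjusted p 0.0202 in limma) then passed besides. Of the 10 line means, 2 of Slc1a2 1369694_at (P and NP) and 2 of Slc17a7 1368986_at (HAD1 and LAD1) reached 7.02, the floor of the filter. The differences of these sets in the other pairs were thus between lines below it. Slc1a3 1371130_at reached it in 7 line means. Averaged over the 5 pairs, 1 of 12 passed, Glul 1367632_at at 0.09 ± 0.02 (SE, adjusted p 0.017 in limma), where 1.17% of all passed upward, and its difference was 0.39 in AA minus ANA and between -0.00 and 0.03 in the other pairs. On this average 3 of 12 passed without the 3 arrays apart, Glul 1367632_at at 0.10 (adjusted p 0.00306 in limma), Slc1a1 1370367_at at 0.09 (adjusted p 0.0278) and Slc1a3 1371130_at at 0.15 (adjusted p 0.0148), where 1.49% of all passed upward. These averages were not shared by all pairs. Slc1a1 1370367_at was then at 0.30 in AA minus ANA and between -0.05 and 0.11 in the other pairs. Slc1a3 1371130_at was at 0.58 in HAD2 minus LAD2 and between -0.11 and 0.20 in the other pairs.

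Slc17a6, whose product VGLUT2 fills vesicles with glutamate in most subcortical glutamatergic neurons, was not called in any pair. Its single probe set 1368564_at ran 12.10, 12.60 and 13.57 (lowest, median and highest) in HAD1 against 11.41, 12.69 and 13.46 in LAD1, a difference of 0.12 (95% interval -0.40 to 0.63), or -0.01 without LAD1 37, the lowest LAD1 array. In HAD2 it ran 12.33, 13.08 and 14.03, against 13.11, 13.76 and 13.93 in LAD2. Of the 8 HAD2 rats, 5 lay below every LAD2 rat and 1 above, and the groups overlapped. The HAD2 minus LAD2 difference was -0.44 ± 0.19 (SE, 95% interval -0.84 to -0.03), which did not pass (adjusted p 0.249 in limma). Nptx1, a pentraxin that gathers glutamate receptors at synapses and 1 of the markers of neighbouring glutamatergic areas, fell by 0.81 in the same pair (adjusted p 2.04e-06 in limma). It was the 1 of 8 probe sets of that list to pass, where 6.37% of all did. Of the 8, 4 had a difference above 0, and their median was -0.05. Their part in the Slc17a6 values was not tested.

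In arrays labelled P, Slc17a6 ran 9.08, 13.72 and 14.15, against 10.74, 14.01 and 14.32 in arrays labelled NP. The lowest value in P was that of P 10, the array that also had the lowest Th of its line, while NP 8, with the lowest Th of NP (8.23), had the highest Slc17a6 of NP (14.32). The difference was -0.16 (95% interval -1.42 to 1.10). It was 0.35 ± 0.42 (SE) without P 10 alone and 0.46 ± 0.43 (SE) without P 10 and NP 8, so the sign rested on P 10. Without NP 10, the lowest NP array, it was -0.45. None of these values was called. In AA the probe set ran 11.84, 12.61 and 13.54, against 11.65, 12.60 and 13.35 in ANA, a difference of 0.17 (95% interval -0.29 to 0.62), or 0.11 ± 0.25 (SE) without the 3 arrays that lie apart. In sP it ran 11.10, 12.46 and 12.98, against 11.50, 12.33 and 13.29 in sNP, a difference of -0.11 (95% interval -0.65 to 0.43). The groups overlapped in each of these pairs.

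What marked Slc17a6 was its spread between rats of 1 line. The within-line standard deviation of its log2 signal was 0.58 in HAD1/LAD1, 0.44 in HAD2/LAD2, 1.4 in P/NP, 0.53 in AA/ANA and 0.58 in sP/sNP. That is above 99.1%, 98.2%, 99.7%, 98.1% and 99.2% of tested probe sets in these pairs. By comparison, the brightest Slc1a3 and Glul sets lay between the percentiles 4.2 and 87.7, and the other sets of these genes between 35.9 and 92.2. Across the arrays of a pair, after line means were taken off, the correlation of Slc17a6 with Th was 0.02 in the 18 HAD1/LAD1 arrays, -0.51 in the 17 HAD2/LAD2 arrays, 0.05 in the 19 P/NP arrays, -0.10 in the 20 AA/ANA arrays and -0.26 in the 17 sP/sNP arrays. Spearman's rho was -0.61 in P/NP, where P 10 was low in both genes and NP 8 only in Th, and 0.01, -0.42, 0.03 and -0.26 in HAD1/LAD1, HAD2/LAD2, AA/ANA and sP/sNP. In AA/ANA without the 3 arrays apart, the within-line standard deviation was 0.56 (percentile 99.1), and Slc17a6 had an r of -0.09 and a rho of 0.05 with Th over 17 arrays.

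It ran against the markers of GABA neurons in all 5 pairs. With the mean of Gad1, Gad2 and Slc32a1, which make and package GABA, Pearson's r was -0.67 in HAD1/LAD1, -0.76 in HAD2/LAD2, -0.82 in P/NP, -0.77 in AA/ANA and -0.57 in sP/sNP. Spearman's rho was -0.64, -0.74, -0.69, -0.70 and -0.58 in the same order of pairs. Without the 2 arrays of each pair farthest from the median of the GABA markers, r lay between -0.78 and -0.50. Over the 17 AA/ANA arrays left without those apart, r was -0.79 and rho -0.70. The negative r was not confined to GABA markers, where its mean over the pairs was -0.72. It was below 0 in all 5 pairs also for microglia genes (mean -0.51) and oligodendrocyte genes (mean -0.31). The mean was -0.265 for genes of neighbouring glutamatergic areas, -0.19 for astrocyte, -0.14 for dopamine neuron and 0.07 for endothelium genes. These are descriptions over arrays that share normalization and dissection, with no test. In bulk tissue, fewer cells of a type and less RNA per cell cannot be told apart. The GABA markers themselves passed in 0 of 3 probe sets in each pair, with mean levels of 10.84 in both HAD2 and LAD2.

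**Figure D2:**
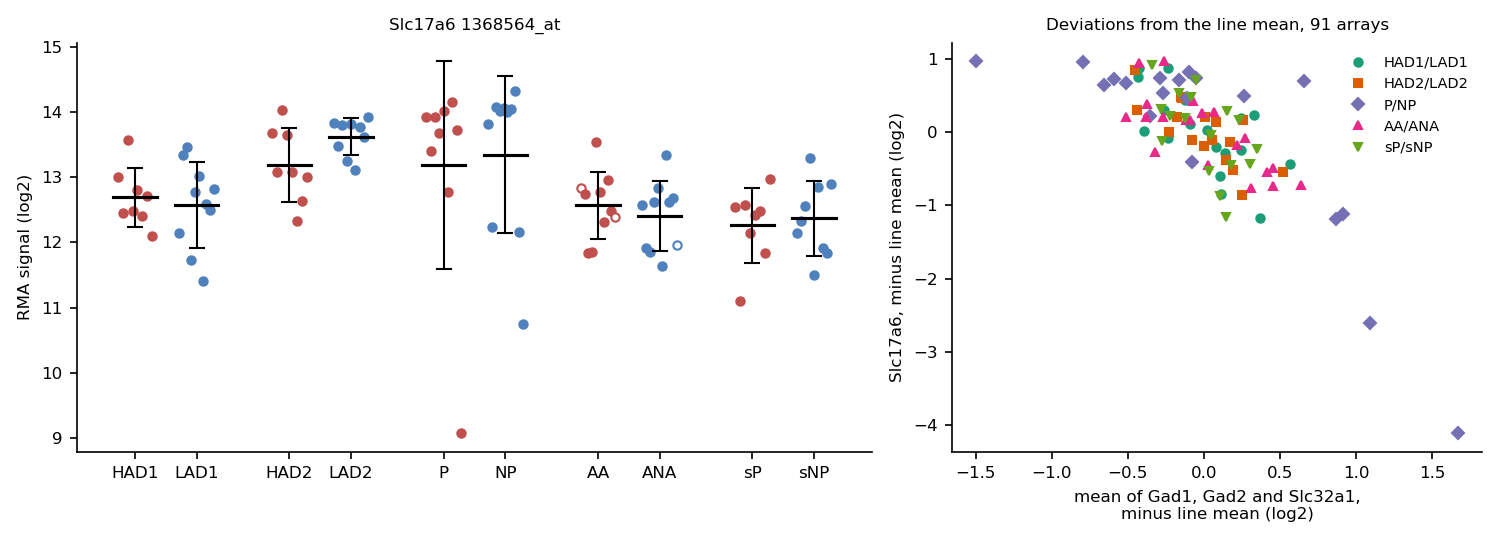
Left, RMA signal (log2) of Slc17a6 in each array of the 10 lines, with the line mean and standard deviation (bars), high-drinking line left of its low-drinking partner, and open points for the 3 arrays that lie apart. Right, Slc17a6 minus its line mean against the mean of Gad1, Gad2 and Slc32a1 minus its line mean (log2), 1 point per array, coloured by pair. Points fall down to the right in each pair, and P 10, at 9.08, is the lowest array on the left.

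The genes whose within-pair pattern was most like Slc17a6, ranked by the mean of Pearson's r over the 5 pairs (91 arrays, 15152 candidate probe sets), were Cbln1 at 0.92, Nrn1 at 0.92 and Tmem163 at 0.91. Cbln1 encodes cerebellin, a secreted organiser of synapses, and its r with Slc17a6 ranged between 0.88 and 0.98 over the pairs. The mean r of these 3 genes was 0.93, 0.94 and 0.92 without the 3 arrays apart. Among the other 5 genes, the bright Slc1a3 set 1368565_at ran opposite to Slc17a6 with a mean r of -0.57, and the 2 other Slc1a3 sets with -0.42 and -0.44.

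Slc17a7, whose product VGLUT1 serves mainly cortical and hippocampal neurons, was dim. Probe set 1368987_at had a highest line mean of 6.34 and was not tested, since the filter asked for a highest line mean of at least 7.02, the 40th percentile of all values. Probe set 1368986_at passed it through HAD1 and LAD1 alone, where it ran 6.94, 7.12 and 7.19 in HAD1 against 6.87, 7.16 and 7.33 in LAD1. Neither showed a called difference, and that of 1368986_at lay between -0.12 in P minus NP and 0.19 in AA minus ANA (adjusted p 0.432 in limma). Without the 3 arrays apart the AA minus ANA value was 0.23 ± 0.07 (SE, adjusted p 0.0518 in limma).

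Slc1a1, whose product EAAT3 takes glutamate and cysteine into neurons, passed in 2 pairs, but on a different probe set in each. In arrays labelled AA, 1370367_at ran 10.16, 10.30 and 10.44, against 9.88, 10.03 and 10.33 in arrays labelled ANA. All 10 AA arrays lay above the ANA median and 4 above every ANA array, so the groups overlapped, and the highest ANA value belonged to ANA 20, 1 of the arrays apart. The difference was 0.26 ± 0.05 (SE, 95% interval 0.16 to 0.37, adjusted p 0.00639 in limma). Without the 3 arrays it was 0.30 ± 0.04 (adjusted p 0.000345 in limma), with 10.16, 10.32 and 10.44 in AA against 9.88, 10.02 and 10.07 in ANA, groups that did not overlap, as was so for 0.255% of all probe sets without those arrays. The second set, 1387932_at, ran 8.87, 9.21 and 9.86 in AA against 9.11, 9.30 and 9.78 in ANA. Its difference was -0.07 (95% interval -0.28 to 0.15), and -0.14 ± 0.06 (SE) without the 3 arrays.

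In HAD2 against LAD2 it was the second set that passed. Slc1a1 1387932_at ran 9.90, 10.04 and 10.35 in HAD2 against 9.48, 9.64 and 10.22 in LAD2. All 8 HAD2 rats lay above the LAD2 median and 1 above every LAD2 rat. The difference was 0.30 ± 0.09 (SE, 95% interval 0.12 to 0.49), at an adjusted p of 0.0474 in limma, close to the threshold. It was lost in 4 of 8 alternative settings, and in 14 of the 17 fits that left out 1 array, where the adjusted p ranged between 0.0041 and 0.0942 and the difference between 0.26 and 0.36. The lowest adjusted p came without LAD2 13. The first set, 1370367_at, differed by -0.05 (95% interval -0.17 to 0.08) in the same rats.

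The HAD1 minus LAD1 differences were 0.11 for 1370367_at (adjusted p 0.298) and 0.15 for 1387932_at (adjusted p 0.42), neither called in limma. Averaged over both HAD/LAD pairs, 1387932_at was higher in the high-drinking lines by 0.23 ± 0.06 (SE, adjusted p 0.0185 in limma), and its differences in the 2 pairs did not differ beyond their error (-0.16, 95% interval -0.41 to 0.10). On the same average, 1370367_at differed by 0.03 (95% interval -0.05 to 0.11) and was not called. Of the 12 probe sets, 2 passed on it, against 6.98% of all, the other being Slc1a3 1371130_at at 0.33. That Slc1a3 set differed by 0.58 in HAD2 minus LAD2 and by 0.09 in HAD1 minus LAD1. The 2 Slc1a1 sets had a mean within-pair r of 0.17, between -0.31 and 0.89 over the pairs.

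Slc1a2, whose product GLT-1 clears most of the glutamate released in the forebrain, passed in HAD1 against LAD1 on the dimmer of its 2 probe sets. Slc1a2 1369694_at ran 5.97, 6.17 and 6.35 in HAD1 against 6.48, 6.61 and 6.72 in LAD1. Every HAD1 rat lay below every LAD1 rat, which was so for 0.0944% of all probe sets. The difference was -0.45 ± 0.05 (SE, 95% interval -0.55 to -0.34, adjusted p 4.99e-05 in limma). Both lines lay below the floor of 7.02, which this set passed through the arrays labelled P and NP alone, and with the floor set on the line means of the pair itself it was not tested.

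In HAD2 the same set ran 5.90, 6.09 and 6.33, against 5.75, 5.92 and 6.09 in LAD2. Here 4 of 8 HAD2 rats lay above every LAD2 rat, and the difference of 0.18 ± 0.07 (SE) did not pass (adjusted p 0.143 in limma), though it passed under array weights at 0.23 (adjusted p 0.0298). The HAD1/LAD1 difference minus the HAD2/LAD2 difference was -0.63 ± 0.08 (SE, adjusted p 1.96e-06 in limma), with all 4 of these line means below the floor. Of all probe sets, 5.67% passed that test, and 2 of 12 here. In AA the set ran 6.25, 6.54 and 7.17, against 6.06, 6.30 and 6.97 in ANA, a difference of 0.26 ± 0.11 (SE, adjusted p 0.299 in limma), or 0.25 ± 0.07 (adjusted p 0.0644) without the 3 arrays. It passed under array weights (adjusted p 0.048) and in the single fit over all lines (adjusted p 0.0318 in limma). Differences in P minus NP (0.02) and sP minus sNP (0.08) were not called.

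The second Slc1a2 set, 1369693_a_at, lay above the floor in all 10 lines and was called in none of the pairs. It ran 7.44, 7.63 and 7.74 in HAD1 against 7.32, 7.60 and 7.79 in LAD1, so the rats that separated on the first set overlapped fully here. The difference was 0.05 (95% interval -0.08 to 0.19). In HAD2 it ran 7.09, 7.45 and 7.75 against 7.02, 7.30 and 7.45 in LAD2, a difference of 0.17 (95% interval -0.01 to 0.34). The differences in the other pairs lay between -0.06 and 0.08, and that of AA minus ANA was 0.02 without the 3 arrays apart. The 2 sets had a mean within-pair r of 0.18.

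Slc1a3, whose product GLAST marks astrocytes and radial glia, passed in HAD2 against LAD2 on 1 of 3 probe sets. Slc1a3 1371130_at ran 6.96, 7.38 and 7.53 in HAD2 against 6.53, 6.76 and 6.89 in LAD2. Every HAD2 rat lay above every LAD2 rat, which was so for 1.1% of all probe sets in that pair. The difference was 0.58 ± 0.07 (SE, 95% interval 0.43 to 0.73, adjusted p 1.99e-05 in limma). The LAD2 mean, 6.76, lay below the floor of 7.02 and the HAD2 mean, 7.34, above it. In HAD1 it ran 6.99, 7.13 and 7.51 against 6.89, 7.18 and 7.39 in LAD1, with a difference of 0.09 (95% interval -0.08 to 0.26). The HAD1/LAD1 difference minus the HAD2/LAD2 difference was -0.49 ± 0.11 (SE, adjusted p 0.00423 in limma).

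The bright set of Slc1a3, 1368565_at, showed no such split. It ran 13.23, 13.38 and 13.63 in HAD2 against 13.29, 13.41 and 13.73 in LAD2, overlapping throughout, with a difference of -0.03 (95% interval -0.17 to 0.10), an interval that does not reach the 0.58 of 1371130_at. The third set, 1388064_a_at, differed by 0.15 (95% interval -0.09 to 0.38) in HAD2 minus LAD2 and by 0.22 (95% interval -0.02 to 0.47) in HAD1 minus LAD1. In the pairs outside HAD/LAD, the 3 sets differed by -0.14 to 0.20, and none was called. AA minus ANA was 0.00 for 1368565_at and -0.18 ± 0.09 (SE) for 1388064_a_at without the 3 arrays apart, neither called. The AA minus ANA difference of 1371130_at, -0.14 with all arrays, was -0.03 without the 3 arrays apart, since AA 1 alone lay at 6.24 below the 7.08 to 7.58 of the other AA arrays.

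Astrocyte markers stood beside these differences as follows. Of 16 probe sets of 13 astrocyte genes, 0 passed in HAD1 against LAD1 and 1 in HAD2 against LAD2, Cldn10, a claudin, which rose by 0.48 (adjusted p 5.74e-07 in limma). Of the 16, 13 had a difference above 0 in HAD2 minus LAD2 (median 0.10), where 54% of all tested probe sets did. In HAD1 minus LAD1, 10 of the 16 did (median 0.03), where 53.3% of all did. The mean over the astrocyte list was 12.59 in HAD1 against 12.58 in LAD1, and 12.45 in HAD2 (12.35 to 12.66) against 12.35 in LAD2 (12.27 to 12.45). Gfap, their defining intermediate filament, ran 11.75 to 13.28 in HAD2 against 11.55 to 13.14 in LAD2. Both P2ry12 sets, which mark microglia, rose by 0.53 and 0.54 in HAD2, while 3 of the 6 microglia genes had a difference above 0, with a median of -0.01. Their part in the Slc1a3 difference was not tested. In HAD1, the oligodendrocyte genes Cldn11 and Mobp rose by 1.13 and 0.30, each on only 1 of its sets. Of the 17 oligodendrocyte sets, 11 had a difference above 0. The dopamine neuron genes Ddc, on 1 of its sets, and Slc18a2, on 1 of its 3 sets, fell by 0.69 and 0.71. Of the 18 dopamine neuron sets, 5 had a difference above 0. The part of these 4 genes in the Slc1a2 difference was not tested either. Over all tested probe sets the share that passed was 4.32% in HAD1 against LAD1, 6.37% in HAD2 against LAD2 and 1.8% in AA against ANA. Of 18 dopamine neuron sets, 2 passed in HAD1 against LAD1 and 2 in AA against ANA. Of 17 oligodendrocyte sets, 2 passed in each HAD/LAD pair. Of 7 microglia sets, 1 passed in HAD1 against LAD1 and 2 in HAD2 against LAD2. Of 6 endothelium sets, 2 passed in each HAD/LAD pair and 1 in AA against ANA, and of 8 sets of neighbouring glutamatergic areas 1 passed, in HAD2 against LAD2. All other counts of these lists were 0 of their sets.

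**Figure D3:**
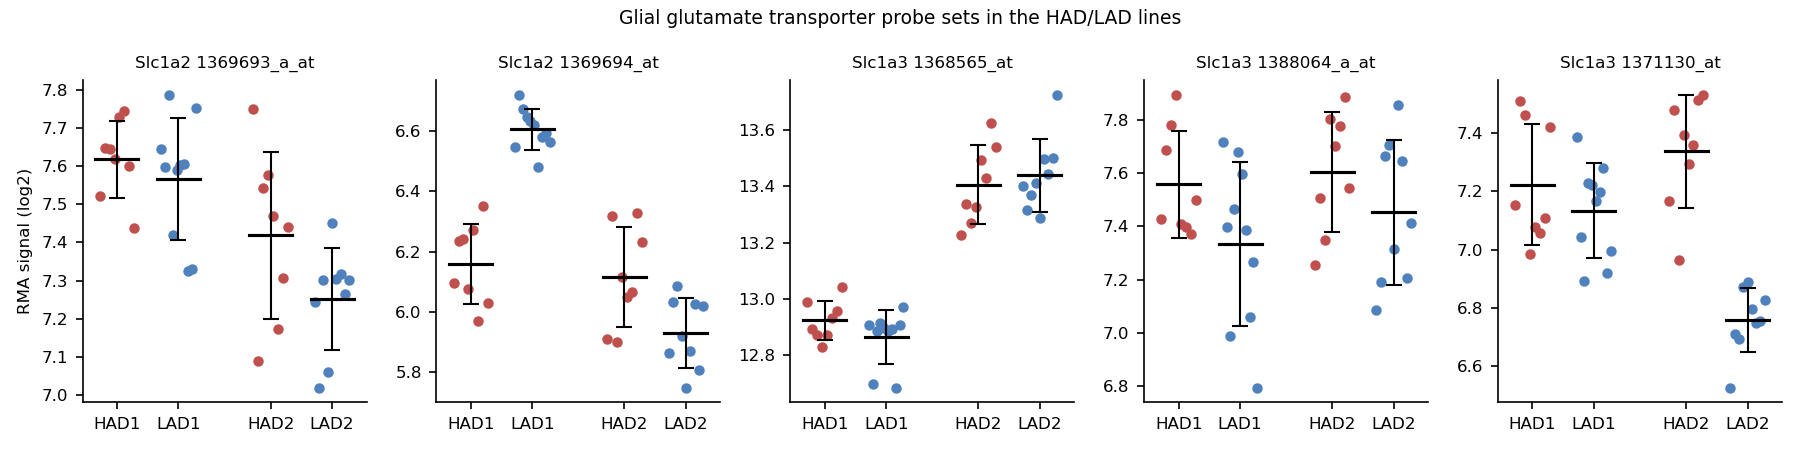
RMA signal (log2) of the 2 Slc1a2 and 3 Slc1a3 probe sets in each array of HAD1, LAD1, HAD2 and LAD2, with line mean and standard deviation (bars), each panel on its own scale. Slc1a2 1369694_at separates HAD1 (5.97 to 6.35) below LAD1 (6.48 to 6.72), and Slc1a3 1371130_at separates HAD2 (6.96 to 7.53) above LAD2 (6.53 to 6.89), while the other sets of both genes overlap.

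Glul, whose product turns glutamate and ammonia into glutamine, had a larger mean on all 3 of its probe sets in arrays labelled AA than in those labelled ANA, and 1 of the 3 passed. RefSeq places 2 start sites of Glul on chromosome 13 of the GRCr8 rat assembly. Their windows are shown because the 3 Glul probe sets had differences of 1 sign in AA minus ANA and varied together within lines. Each window is 300 bases long, mostly upstream of the start, and is given on the plus strand. Capitals mark matches on either strand to the CCAAT box (CCAAT) or the GC box (GGGCGG), with no overlap between them.
Glul, chr13:68519250-68519549: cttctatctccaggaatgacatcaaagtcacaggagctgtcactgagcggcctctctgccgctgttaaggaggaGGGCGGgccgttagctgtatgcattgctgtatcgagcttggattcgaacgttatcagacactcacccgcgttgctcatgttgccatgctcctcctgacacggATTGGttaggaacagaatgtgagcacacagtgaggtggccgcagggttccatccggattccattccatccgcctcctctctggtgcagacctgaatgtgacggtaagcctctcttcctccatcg
Glul, chr13:68575816-68576115: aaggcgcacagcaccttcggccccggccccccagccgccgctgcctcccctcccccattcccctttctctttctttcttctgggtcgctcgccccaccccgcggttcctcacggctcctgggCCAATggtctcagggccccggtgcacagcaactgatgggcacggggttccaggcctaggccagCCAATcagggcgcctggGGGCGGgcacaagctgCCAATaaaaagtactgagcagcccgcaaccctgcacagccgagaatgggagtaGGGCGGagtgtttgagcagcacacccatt
The upstream window holds 1 CCAAT match, on the minus strand, and 1 GC box, and the downstream window 3 CCAAT matches and 2 GC boxes, all on the plus strand. Of 33469 promoter windows of this length in RefSeq, 37.5% hold a CCAAT and 33.1% a GC box. The TATA box (TATAAA) and TGTTCT, a hexamer bound by the glucocorticoid receptor, were searched on both strands and are in neither Glul window, while 14.2% and 20.7% of all windows hold them. RefSeq also lists the pseudogenes Glul-ps1 on chromosome 15 and Glul-ps2 on chromosome 19, and which probes also match them was not checked. The table matched 5 of the 6 genes.

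Glul 1367632_at, the brightest set, ran 13.51, 13.82 and 14.004 in arrays labelled AA against 13.17, 13.41 and 13.69 in those labelled ANA. All 10 AA arrays lay above the ANA median and 7 above every ANA array, and the groups overlapped. The difference was 0.39 ± 0.07 (SE, 95% interval 0.25 to 0.54, adjusted p 0.00464 in limma), a fold of 1.315. Without the 3 arrays apart it was 0.45 ± 0.07 (SE, adjusted p 0.000626 in limma), with 13.67, 13.87 and 14.004 in AA against 13.17, 13.42 and 13.69 in ANA. The lowest AA value, 13.51, was that of AA 19, 1 of the arrays apart.

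The 2 other Glul sets had differences of the same sign. Glul 1386870_at ran 12.26, 12.55 and 12.79 in AA against 12.13, 12.27 and 12.73 in ANA, and 9 of 10 AA arrays lay above the ANA median. Its difference was 0.25 ± 0.07 (SE, adjusted p 0.0966 in limma), and 0.27 ± 0.07 (adjusted p 0.0354) without the 3 arrays. Glul 1367633_at ran 10.33, 10.46 and 11.29 in AA against 10.10, 10.19 and 10.63 in ANA, and all 10 AA arrays lay above the ANA median. Its difference was 0.37 ± 0.10 (SE, adjusted p 0.0665 in limma), and 0.29 ± 0.08 (adjusted p 0.0442) without the 3 arrays. Without the 3 arrays 4 of 12 probe sets of the 6 genes passed, against 4.96% of all. Both sets also passed with all arrays kept under array weights (adjusted p 0.0101 for 1386870_at and 0.013 for 1367633_at) and in the single fit over all lines (0.0286 and 0.0153), and 1367633_at with arrays centred on their median (0.0314 in limma). Both passed as well without ANA 6 alone (adjusted p 0.0161 and 0.031 in limma), the highest ANA array on all 3 Glul sets. Of the 20 fits that left out 1 array, however, 1386870_at passed in only 2 and 1367633_at in only 3. The highest adjusted p in limma was 0.178 for 1386870_at, without ANA 2, and 0.122 for 1367633_at, without AA 9.

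Glul did not differ beyond its error in the other pairs. The difference of 1367632_at was 0.03 (95% interval -0.08 to 0.14) in HAD1 minus LAD1, -0.00 (-0.09 to 0.09) in HAD2 minus LAD2, 0.03 (-0.08 to 0.14) in P minus NP and 0.02 (-0.08 to 0.13) in sP minus sNP. None of these 4 intervals reaches the 0.39 of AA minus ANA. The other 2 sets differed by -0.03 to 0.14 in those pairs.

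In arrays labelled AA against ANA, the markers of glia gave the following values. Of 16 astrocyte probe sets 0 passed, with or without the 3 arrays apart, and their mean was 12.74 ± 0.11 (SD) in AA against 12.71 ± 0.14 in ANA. Of 17 oligodendrocyte probe sets 0 passed, with a mean of 13.53 (13.37 to 13.66) in AA against 13.46 (13.28 to 13.63) in ANA. Of these 17, 2 passed without the 3 arrays, where 4.96% of all did: Mobp rose by 0.30 and Cldn11 by 0.47 (adjusted p 0.0251 and 0.0287 in limma), and the list mean was 13.51 in AA against 13.45 in ANA. Of the other marker lists, 1 of 7 microglia sets and 2 of 6 endothelium sets then rose, and 2 of 18 dopamine neuron sets fell. Gfap ran 12.19 to 13.75 in AA against 11.30 to 13.82 in ANA. Slc18a2, the vesicular monoamine transporter of dopamine neurons, fell by 0.79 and 0.76 on 2 of its 3 sets in AA (adjusted p 0.00418 and 0.0475 in limma), and the remaining set differed by -0.08. The 3 sets differed by -0.85, -0.88 and -0.02 without the arrays apart. The part of these markers in the Glul and Slc1a1 differences was not tested.

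**Figure D4:**
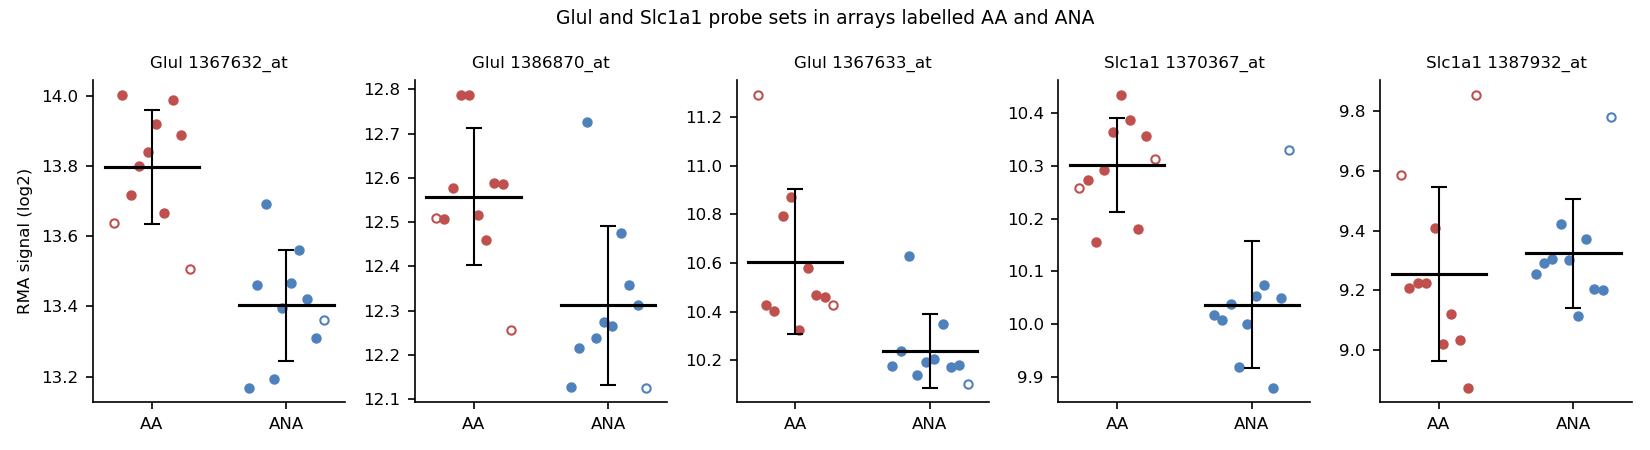
RMA signal (log2) of the 3 Glul and 2 Slc1a1 probe sets in each array labelled AA (left) and ANA (right), with mean and standard deviation (bars), each panel on its own scale. Open points are the 3 arrays whose signal distributions lie apart from their label. The AA mean lies above the ANA mean on the 3 Glul sets and on Slc1a1 1370367_at, and not on Slc1a1 1387932_at.

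Within lines, the mean r of 0.52 and 0.76 between Glul sets lay above those between sets of 1 transporter gene. The lowest between Glul sets, 0.29, lay below the 0.34 and 0.35 of Slc1a3. The mean within-pair r among the 3 Glul sets was 0.29, 0.52 and 0.76, and among the 3 Slc1a3 sets 0.15, 0.34 and 0.35. On the mean over the pairs, Glul went more with the 9 oligodendrocyte genes (mean r 0.41 to 0.45 over its 3 sets) than with the 13 astrocyte genes (0.04 to 0.08) or the 5 endothelium genes (0.08 to 0.365). These means hide differences between pairs. With the astrocyte genes r was 0.47 to 0.59 in HAD1/LAD1 and -0.44 to -0.14 in AA/ANA. With the oligodendrocyte genes it was 0.56 to 0.83 in HAD1/LAD1, 0.17 to 0.28 in AA/ANA and 0.11 to 0.21 in P/NP. The bright Slc1a3 set went with the astrocyte genes at a mean r of 0.50, but also with the 6 microglia genes at 0.60 and the 3 GABA neuron genes at 0.45. For the other Slc1a3 sets the mean r with the astrocyte genes was 0.215 and 0.06. Each mean r is an average of 5 correlations over 17 to 20 arrays each, and all of these values are given as a description. Leaving out the 3 arrays apart, the mean r among the Glul sets was 0.34, 0.50 and 0.83, that of Glul with the oligodendrocyte genes 0.39 to 0.50 and with the astrocyte genes 0.02 to 0.07, and that of the bright Slc1a3 set with the astrocyte genes 0.52. The gene most like Glul 1367632_at was Scd2, a fatty acid desaturase, at a mean r of 0.68, followed by Map7 at 0.60 and Pkp4 at 0.60. For Slc1a3 1368565_at they were Hnrnpr, Fam171b and Mettl9 at 0.79, 0.79 and 0.78, and for Slc1a2 1369693_a_at Sdhd, Rab3ip and Vxn at 0.64, 0.62 and 0.61. For Slc1a1 1370367_at (Camsap2, Cap2 and Ywhaz) the mean r was 0.51 to 0.53, and for Slc17a7 (Wnt6, Ppp4r3a and LOC102555503) 0.56 to 0.59. Leaving out the 3 arrays apart, the mean r of the genes named here was 0.46 to 0.77.

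**Figure D5:**
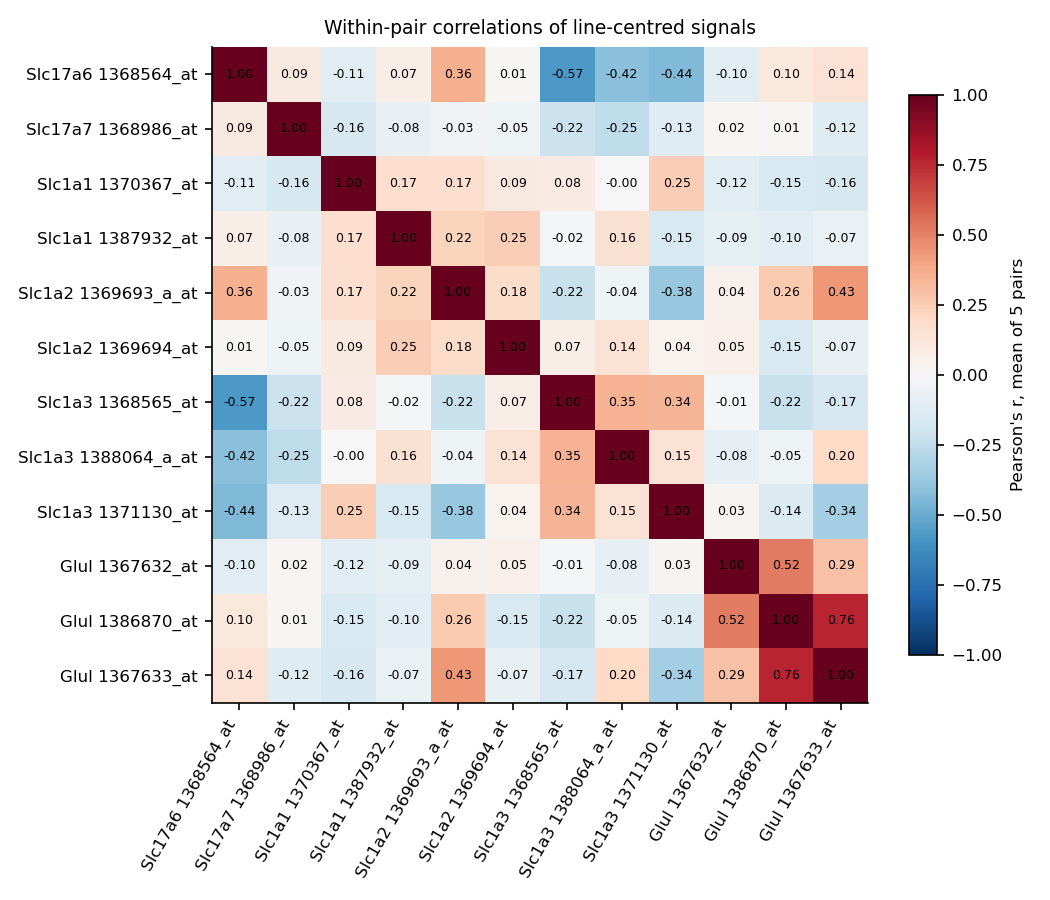
Pearson's r between the 12 tested probe sets after line means were taken off, averaged over the 5 pairs (91 arrays), with each value printed in its cell. The values among the 3 Glul sets run from 0.29 to 0.76, Slc1a2 1369693_a_at against Glul 1367633_at is at 0.43, and Slc17a6 is negative against the 3 Slc1a3 sets (-0.57 to -0.42).

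Of 32 further genes that handle glutamate and glutamine, 27 had a single-symbol probe set and 26 were tested, on 37 probe sets. In HAD1 against LAD1, 0 passed upward and 1 downward, where 4.32% of all passed, and in HAD2 against LAD2, 2 passed upward and 0 downward, where 6.37% of all did. In each of the other 3 pairs 0 passed in either direction, though without the 3 arrays apart 2 passed upward in AA against ANA, where 4.96% of all passed, Slc38a2 at 0.22 and Slc25a13 at 0.24 (adjusted p 0.0419 and 0.0431 in limma). Their median difference was 0.00 in HAD1 minus LAD1, 0.06 in HAD2 minus LAD2, -0.03 in P minus NP, 0.02 in AA minus ANA and 0.02 in sP minus sNP.

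Both that rose in HAD2 were sets of Slc38a1, which encodes a transporter that takes glutamine up into neurons. Slc38a1 1370409_at ran 9.06, 9.26 and 9.40 in HAD2 against 8.51, 8.66 and 9.02 in LAD2. No HAD2 rat overlapped LAD2, and the difference was 0.54 ± 0.07 (SE, adjusted p 1.37e-05 in limma). Slc38a1 1372921_at ran 13.16, 13.21 and 13.32 in HAD2 against 12.85, 13.05 and 13.15 in LAD2, with a difference of 0.20 ± 0.04 (SE, adjusted p 0.00569 in limma). Both sets thus separated the lines, as was so upward for 1.1% of all probe sets in that pair, and neither passed in another pair, where they differed by -0.18 to 0.07.

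The set that fell in HAD1 was Rimklb 1373902_at, for an enzyme that joins glutamate to N-acetylaspartate. It ran 8.18, 8.37 and 8.48 in HAD1 against 8.32, 8.58 and 8.85 in LAD1, a difference of -0.23 ± 0.06 (SE, adjusted p 0.0276 in limma), and the lines overlapped. The 3 other Rimklb sets differed by 0.05 to 0.20 and did not pass. Slc7a11, the cystine/glutamate exchanger, differed by 0.57 in P minus NP and by -0.01 in HAD1 minus LAD1, and did not pass in any pair. Glud1, Got1 and Got2, which link glutamate to the citric acid cycle, did not pass on any of their 5 sets, with differences of -0.14 to 0.18 over the 5 pairs.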

How the data were processed

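Rat VTA RNA, 1 Affymetrix array per rat, was amplified in 2 cycles and labelled with biotin, per the labels' protocols. The authors deposited a log2 signal for each of 31099 probe sets, computed with RMA (background correction, quantile normalization, probe summary), per the submitters' processing notes. The RMA version, and which arrays were normalized together, is not given in the sources used here. Columns without a sample numbered 0. Control probe sets (57) were left out. Names came from the platform annotation: 20826 probe sets had 1 symbol, 436 several and 9780 none, and 20758 matched GRCr8 by gene ID.

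Groups came from the line in the sample titles. A probe set was tested if its highest line mean reached 7.02, the 40th percentile over all signals, which left 21185. Each pair was fitted alone in limma 3.58.1 (R 4.3.3; lmFit, eBayes), 2-sided, with Benjamini-Hochberg adjustment over all tested probe sets. Both HAD/LAD differences were also fitted together (4 lines), and all 5 in 1 fit of 10 lines, from which the F test, added after seeing the data, was taken. The code was tested on simulated data. The number of arrays limits the precision. Animal numbers shared by P and NP (9 numbers, r of same-numbered deviations -0.69 to 0.67) and by sP and sNP (8 numbers, -0.40 to 0.30) do not pair the samples. The genes described, the gene lists and the rule for named genes were chosen with earlier results of these data known. That rule took all single-symbol probe sets of the 6 genes, called probe sets of the further glutamate genes, and the 3 genes most alike in within-pair pattern to the brightest probe set of each gene, while other named genes were chosen after their values were seen. The marker lists were dopamine neuron, astrocyte, oligodendrocyte, GABA neuron, neighbouring glutamatergic area, microglia and endothelium. Figures were drawn with matplotlib 3.10.9.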

Additional observations from a re-analysis of the deposited data

Results flagged for a closer look

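The HAD1/LAD1 difference minus the HAD2/LAD2 difference passed the test for 2 probe sets, Slc1a2 1369694_at at -0.63 and Slc1a3 1371130_at at -0.49 on the log2 scale. The 4 line means of the Slc1a2 set, and the LAD2 mean of the Slc1a3 set, lay below the floor of 7.02.

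Single arrays far from the rest of their line were looked for in 130 groups (13 probe sets in 10 lines) with Dixon's criterion at the 95% level, which chance meets in about 1 in 20 groups, and 15 were found. The array labelled P 10 lay at 9.08 for Slc17a6, where the other P arrays lay at 12.78 to 14.15. P 10 was also high for both Slc1a1 sets, at 10.89 for 1370367_at (others 10.15 to 10.36) and at 10.41 for 1387932_at (others 9.79 to 9.98). Its Th signal, 9.12, was the lowest of the arrays labelled P.

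The array labelled ANA 20, whose signal distribution lies with the arrays labelled sP and sNP, was found for 4 sets. It was at 5.09 for Slc17a7 1368986_at, at 10.33 for Slc1a1 1370367_at, at 9.78 for Slc1a1 1387932_at and at 6.975 for Slc1a2 1369694_at. AA 1 was at 6.24 for Slc1a3 1371130_at, below the 7.08 to 7.58 of the other AA arrays.

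The remaining 7 were LAD1 32 at 6.07 for Slc17a7 1368987_at, LAD2 14 at 10.36 for Slc1a1 1370367_at, HAD2 5 at 10.35 for Slc1a1 1387932_at, LAD2 20 at 13.73 and sNP 4 at 13.06 for Slc1a3 1368565_at, sP 2 at 6.58 for Slc1a3 1371130_at, and ANA 6 at 10.63 for Glul 1367633_at. Slc1a3 1371130_at in HAD2 and LAD2, and Slc1a2 1369694_at in HAD1 and LAD1, had no such array.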

How the results depend on the processing

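No difference that was called reversed its sign under any alternative run. The differences of Slc1a2 1369694_at in HAD1 minus LAD1 (-0.46 to -0.44 over 6 alternatives), Slc1a3 1371130_at in HAD2 minus LAD2 (0.57 to 0.64 over 7), and in AA minus ANA Glul 1367632_at (0.33 to 0.47 over 10) and Slc1a1 1370367_at (0.26 to 0.30 over 10) passed in each alternative that tested them, and in each fit without 1 array. With 1 probe set per gene, the calls over all probe sets were 341 (main 916) in HAD1/LAD1, 578 (1350) in HAD2/LAD2, 153 (381) in AA/ANA, 632 (1478) for the HAD/LAD mean, 550 (1201) for the difference between those pairs and 155 (455) for the mean of 5, since fewer probe sets were tested. Of the 6 genes' sets, 0 then passed in each HAD/LAD comparison, where the brightest set of each gene was kept. With the floor at the 60th percentile, 8.58, 0 passed in HAD1/LAD1, 1 in HAD2/LAD2, 1 for the HAD/LAD mean and 0 for the difference between those pairs, since the dim sets were not tested. With the floor on a pair's own line means, chosen after seeing the data, 0 passed in HAD1/LAD1. In HAD2/LAD2, 1 passed with no filter, with quantile normalization or with arrays centred on their median. In AA/ANA, array weights gave 1496 calls and 5 of the 6 genes' sets, the fit of all arrays 835 and 5, and leaving out the 3 arrays apart 1051 and 4. For the mean of 5 differences, array weights gave 1570 and 3, leaving out the 3 arrays apart (for this average chosen after seeing the data) 609 and 3, and quantile normalization gave 0 of the 6 genes' sets, Glul 1367632_at then being at 0.07 (adjusted p 0.0803 in limma). The causes of these shifts other than fewer sets tested were not tested. Without 1 array, calls ranged over 724 to 1428 in HAD1/LAD1 (1428 without LAD1 37; 1 to 1 of the 6 genes' sets), 1141 to 1469 in HAD2/LAD2 (1 to 2) and 258 to 672 in AA/ANA (672 without ANA 20; 2 to 4, with 4 without ANA 6), and 0 to 0 in P/NP and sP/sNP. The replicate block on shared animal numbers, which do not pair the samples (1 of 9 numbers in P/NP and 0 of 8 in sP/sNP correlated best with their own), gave 0 calls in both pairs. It was not run for the other pairs, where no number is shared. Dim sets, near or below 7.02, limit what can be said of Slc17a7, Slc1a2 1369694_at and Slc1a3 1371130_at.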
